A study of Homo sapiens with 8 samples.

Results

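MV-3, a cell line derived from human melanoma, was compared with 3 other tumor-derived lines in small RNA-seq data. MV-3 was represented by 2 of the 8 libraries of the series, picked by their labels, and the other 6 libraries were 2 each of ES-2, Huh-7 and A-549. The comparison asked which mature microRNAs (miRNAs) were higher or lower in MV-3 than in each of the other lines, and which miRNAs known from melanocytes and melanoma were present or absent.

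ES-2 cells derive from ovarian cancer, Huh-7 cells from hepatocellular carcinoma and A-549 cells from lung adenocarcinoma. All 4 lines were parental cells without treatment or genetic change, grown in the same serum-supplemented medium and harvested 48 h after seeding. Both libraries of a line are described by the study as biological replicates of that line, so n = 2 for each line and the error below is the spread between cultures of 1 line, not between tumors. Each line stands for a single tumor, and tumor type, donor and culture history cannot be told apart here.

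MV-3 libraries were the shallowest of the series, with 1173902 and 1549279 reads on mature miRNAs in a range up to 2670030 reads. Levels are given as normalised CPM, the deposited read counts relative to library size (CPM), after scaling by the trimmed mean of M values (TMM), in the order replicate 1 and replicate 2. In MV-3, a count of 3 reads, used here as the detection floor, equalled 2.22 and 1.65 normalised CPM. A miRNA at 0 in MV-3 may thus be present up to about these levels, and floors and intervals cover counting error only. Of 2588 miRNA names, 1327 had a read in any library and 528 passed the filter for testing. Fold changes were taken on the scale log2(normalised CPM + 1), which understates the change of miRNAs with few reads, and are called log2 differences (MV-3 minus the other line). A miRNA was called with limma at a Benjamini-Hochberg adjusted p below 0.01, and the 3 contrasts share the MV-3 libraries.

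miRNAs are cut as a 5p and a 3p arm from a hairpin, and 1 arm is usually kept by Argonaute, while the other is degraded. The kept arm pairs with mRNAs mainly through its seed, bases 2 to 8 from the 5′ end, and lowers the stability and translation of these mRNAs. Hairpins that lie close together are often cut from 1 primary transcript, and many lie in introns of protein-coding or long non-coding host genes. In the melanocyte lineage, the transcription factor MITF drives TRPM1 together with miR-211, which lies in an intron of TRPM1. Melanomas differ in MITF activity, and strongly pigmented and poorly pigmented melanomas differ in this miRNA.

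The sequences below are those on which the comparison turns, as given by RefSeq for GRCh38.p14, with the seed in capitals. Of 33 miRNAs that differed from every other line, 29 had an entry, and no 2 of these 29 shared a seed. The first set shows miRNAs that were higher in MV-3 than in every other line.
miR-129-5p: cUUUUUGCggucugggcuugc
miR-129-2-3p: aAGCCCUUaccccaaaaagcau
miR-214-3p: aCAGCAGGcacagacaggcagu
miR-330-3p: gCAAAGCAcacggccugcagaga
miR-99b-3p: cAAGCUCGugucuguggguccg
miR-92b-3p: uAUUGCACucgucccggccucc
miR-218-5p: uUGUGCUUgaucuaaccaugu
miR-24-3p: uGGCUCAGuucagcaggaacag
miR-23a-3p: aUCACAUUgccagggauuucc
The second set shows miRNAs that were lower in MV-3 than in every other line, with miR-196a-5p as the close relative of miR-196b-5p.
miR-224-5p: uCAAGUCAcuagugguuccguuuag
miR-452-5p: aACUGUUUgcagaggaaacuga
miR-335-3p: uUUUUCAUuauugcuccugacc
miR-196b-5p: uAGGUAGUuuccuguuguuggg
miR-196a-5p: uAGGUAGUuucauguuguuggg
miR-181a-5p: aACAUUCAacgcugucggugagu
The third set shows the miRNAs used to check the identity of MV-3, namely the melanocyte miR-211-5p with its relative miR-204-5p, and 3 miRNAs named as markers of this line.
miR-211-5p: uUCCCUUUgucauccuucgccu
miR-204-5p: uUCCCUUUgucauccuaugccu
miR-143-3p: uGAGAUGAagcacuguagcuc
miR-34b-3p: cAAUCACUaacuccacugccau
miR-199a-3p: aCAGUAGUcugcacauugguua
miR-196b-5p differs from miR-196a-5p by A12C, and miR-211-5p from miR-204-5p by A17U and U18C, with positions counted from 1 at the 5′ end and the base of miR-196a-5p or miR-204-5p first. Both pairs share their seeds, and reads of such close relatives could have been split by the counting.

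Melanocyte miRNAs were at or below the detection floor in MV-3. miR-211-5p, the TRPM1 miRNA at chr15:31065032-31065141 on the minus strand (GRCh38.p14), had 0 and 0 reads in the MV-3 libraries, and the other arm, miR-211-3p, had no read in any library. The only reads of miR-211-5p were 1 and 1 in Huh-7. miR-204-5p, which shares its seed and lies in an intron of TRPM3, had 2 and 2 reads in MV-3, against 141 and 87 in Huh-7, a log2 difference of -3.95 ± 0.65 (SE, adjusted p = 0.00203). miR-204-5p passed the filter for testing only through Huh-7, so this call and its adjusted p carry no weight of their own. The miR-506-514 cluster on the long arm of the X chromosome, which is abundant in many melanomas, was not detected either. All 20 of its miRNAs in the table had 0 reads in both MV-3 libraries, and 13 of the 20 had no read in any library. Its few reads elsewhere, 30 in each Huh-7 library summed over the cluster, were found in Huh-7 and not in ES-2 or A-549. The label "melanoma derived" was therefore not matched by melanocyte-lineage miRNAs at this depth, and MV-3 is called by its label only.

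The 3 miRNAs named as markers of MV-3 were abundant in MV-3, but none separated it from every other line. miR-143-3p, cut from the long non-coding RNA CARMN and known from smooth muscle and fibroblasts, was at 1057 and 1018 in MV-3, 9.02 and 25.2 in ES-2, 244 and 258 in Huh-7 and 2506 and 2617 in A-549. It was higher than in ES-2 and Huh-7 with log2 differences of 6.003 and 2.05 (SE 0.40, adjusted p = 7.10e-05 and 0.0047), whereas both A-549 libraries lay above both MV-3 libraries, with a difference of -1.30 ± 0.40 (SE, adjusted p = 0.0348). With library size only, the call against Huh-7 was lost. miR-34b-3p, a miRNA of the p53-responsive miR-34 family, was at 128 and 85.1 in MV-3, 2.08 and 0 in ES-2, 0 and 0 in Huh-7 and 97.3 and 71.2 in A-549. MV-3 and A-549 overlapped for this miRNA, with a difference of 0.32 ± 0.60 (SE, adjusted p = 0.692). miR-199a-3p, a mesenchymal miRNA, was at 7621 and 6868 in MV-3, 4664 and 4799 in ES-2, 7.32 and 6.15 in Huh-7 and 11.1 and 6.54 in A-549. MV-3 and ES-2 both stood far above Huh-7 and A-549, and the 2 MV-3 libraries were above the 2 ES-2 libraries, by a log2 difference of 0.61 ± 0.22 (SE, adjusted p = 0.0826) that did not pass the test. Its sequence is identical to that of miR-199b-3p (0 substitutions), so reads cannot be assigned to 1 locus.

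Neighbors of these markers in the same transcripts were read beside them. The miR-34b/c transcript on chromosome 11 gave 194 and 165 normalised CPM of miR-34c-5p in MV-3 and 239 and 155 in A-549, but 1.39 and 3.59 in ES-2 and 2.25 and 0 in Huh-7. miR-34a-5p, the family member encoded on chromosome 1, showed another pattern. It had 0 and 0 reads in MV-3, while it was at 174 and 152 normalised CPM in Huh-7 and 435 and 452.3 in A-549, with log2 differences of -7.36 and -8.80 (SE 0.57, adjusted p = 6.13e-05 and 4.18e-05). miR-34a-5p passed the filter for testing only through Huh-7 and A-549, so these calls and adjusted p carry no weight of their own. In ES-2, miR-34a-5p was near the floor at 4.17 and 0.514, and MV-3 could not be told from ES-2 (adjusted p = 0.0956). Of the 9 miRNAs of the miR-34/449 family, 5 were tested, and 4 were higher and 1 lower in MV-3 than in the mean of the other lines, beside 18% higher and 22.9% lower over all 528 tested miRNAs. The lower miRNA was miR-34a-5p, whose call carries no weight in this count. miR-145-5p, cut from the same transcript as miR-143-3p, reached only 6.66 and 15.9 in MV-3. Of 3 tested miRNAs of the cluster of miR-143 and miR-145, 3 were higher in MV-3 than in ES-2, beside 11.6% over all tested miRNAs, and 0 were called against A-549.

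**Figure D1:**
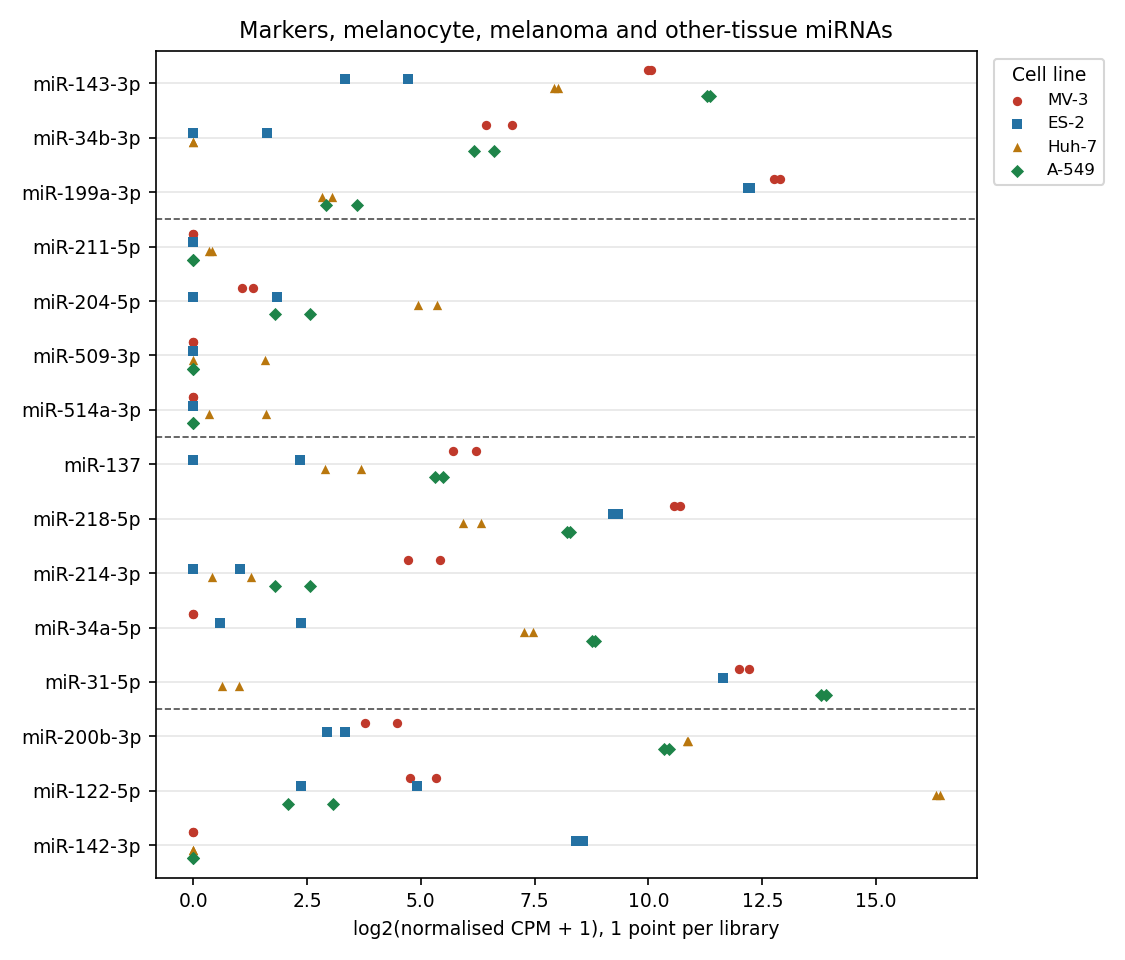
Levels of marker miRNAs as log2(normalised CPM + 1) on the horizontal axis, 1 point per library and 1 symbol per line; dashed lines separate, from the top, the 3 named markers, melanocyte-lineage miRNAs, melanoma-associated miRNAs and miRNAs of other tissues. The MV-3 points of miR-211-5p, miR-509-3p and miR-514a-3p lie at 0, and for miR-143-3p the A-549 points lie above those of MV-3.

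Markers of other tissues gave a second check of the label. Epithelial miRNAs were low in MV-3. miR-200b-3p, which keeps epithelial cells from a mesenchymal state, was at 12.6 and 21.4 in MV-3 and 9.02 and 6.68 in ES-2, against 1847 and 1859 in Huh-7 and 1305 and 1403 in A-549. Of 7 epithelial miRNAs, 4 were tested, and all 4 (miR-200a-3p, miR-200b-3p, miR-200c-3p and miR-429) were lower in MV-3 than in Huh-7 and in A-549, while 0 were called against ES-2. Over all tested miRNAs, 26.9% were lower than in Huh-7 and 24.1% lower than in A-549, and with library size only the call of miR-200c-3p against A-549 was lost, at -1.12. The summed level of the list was 29.6 to 47.2 normalised CPM in MV-3, 62.7 to 64.6 in ES-2, 1606 to 1735 in A-549 and 2273 to 2339 in Huh-7. The hepatocyte miRNA miR-122-5p was at 39.2 and 26.3 in MV-3 and 81224 and 86217 in Huh-7, and 3 of 3 hepatocyte miRNAs were lower than in Huh-7. The leukocyte miRNA miR-142-3p had 0 and 0 reads in MV-3, against 376 and 337 normalised CPM in ES-2. Of 7 blood cell miRNAs, 6 had at most 3 reads in both MV-3 libraries, the exception being miR-486-5p at 114 and 116. Of 4 muscle miRNAs, 3 had at most 3 reads in both MV-3 libraries, and the other, miR-1-3p, was at 8.88 and 1.1. Among 6 neural miRNAs, miR-124-3p, miR-219a-5p and miR-338-3p were at or below the floor, and miR-9-5p at 107 and 45.0 was lower than in A-549, with a log2 difference of -2.86 ± 0.58 (SE, adjusted p = 0.00624), a call that was lost with library size only, at -1.91. miR-9-3p was also lower than in A-549, at -2.26, and miR-9-5p was higher than in Huh-7, at 2.79. Both of these calls were lost with library size only. miR-128-3p was lower than in Huh-7, at -0.52, and higher than in A-549, at 0.80. The endothelial miR-126-3p, at 20.7 and 35.1, was lower than in Huh-7 and A-549 by log2 differences of -4.02 and -3.60 (SE 0.30, adjusted p = 4.81e-05 and 0.000114), and the same 2 contrasts were called for miR-126-5p.

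Over all 528 miRNAs, MV-3 stood closest to ES-2 by the number of calls. Against ES-2, 61 miRNAs were higher (11.6% of those tested) and 75 lower (14.2%). Against Huh-7, 106 were higher (20.1%) and 142 lower (26.9%), and against A-549, 82 were higher (15.5%) and 127 lower (24.1%). Against the mean of the 3 lines, each weighted equally, 95 were higher (18% of those tested) and 121 lower (22.9%), and the median log2 difference was -0.26. Without MV-3 replicate 1 or 2, the 216 calls against the mean became 132 or 129. Against ES-2, 73 miRNAs were called when only the libraries of both lines were fitted. Differences between these counts were not tested. The counts rest on the scaling of the libraries, since the TMM factor was 1.16 ± 0.018 (SD, n = 2) for MV-3, 0.857 ± 0.0125 for ES-2, 1.67 ± 0.0496 for Huh-7 and 0.601 ± 0.0107 for A-549. With library size only, the median log2 difference moved by 0.40 against ES-2, -0.52 against Huh-7 and 0.88 against A-549. The split of higher and lower calls then became 85 and 58 against ES-2, 92 and 187 against Huh-7, 159 and 82 against A-549, and 121 and 97 against the mean of the lines. For the mean of the lines, edgeR on recovered reads gave 105 higher and 60 lower calls.

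Against this background, 17 miRNAs (3.22% of those tested) were higher in MV-3 than in every other line, and 16 (3.03%) were lower. Of the 17 higher miRNAs, 2 (miR-129-2-3p and miR-214-3p) passed the filter on low values only through MV-3. Of the 16 lower, 7 passed only through the other lines, namely miR-224-5p, miR-452-5p, miR-452-3p, miR-335-3p, miR-190a-5p, miR-582-5p and miR-328-3p. For these 9 a difference was built into the filter, and their calls carry no weight of their own. The same holds for lower calls of any other tested miRNA with at most 3 reads in both MV-3 libraries. The smallest of the 3 log2 differences, the margin, ranged from 0.25 to 3.23 among the higher miRNAs with a median of 1.35, and from 0.52 to 7.74 in size among the lower miRNAs with a median of 1.66. The line nearest to MV-3 was A-549 for 8, ES-2 for 7 and Huh-7 for 2 of the higher miRNAs, and ES-2 for 10 and A-549 and Huh-7 for 3 each of the lower miRNAs. With library size only, 12 of the 17 higher and 7 of the 16 lower calls were kept, and without MV-3 replicate 1, 11 miRNAs were higher than in every line. Without ES-2 replicate 1 or either Huh-7 library, 10 miRNAs were lower. Across all 19 alternative settings and left-out libraries, 10 miRNAs kept their call each time, namely miR-330-3p, miR-99b-3p, miR-92b-3p, miR-218-5p and miR-505-3p among the higher, and miR-224-5p, miR-452-5p, miR-452-3p, miR-335-3p and miR-196b-5p among the lower. Among these, miR-224-5p, miR-452-5p, miR-452-3p and miR-335-3p passed the filter only through the other lines, so keeping their calls adds no support. Nearest the threshold, the largest adjusted p was 0.00481 for miR-214-3p and 0.00888 for miR-582-3p inside, and 0.0169 for miR-152-3p and 0.0205 for miR-224-3p outside.

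**Figure D2:**
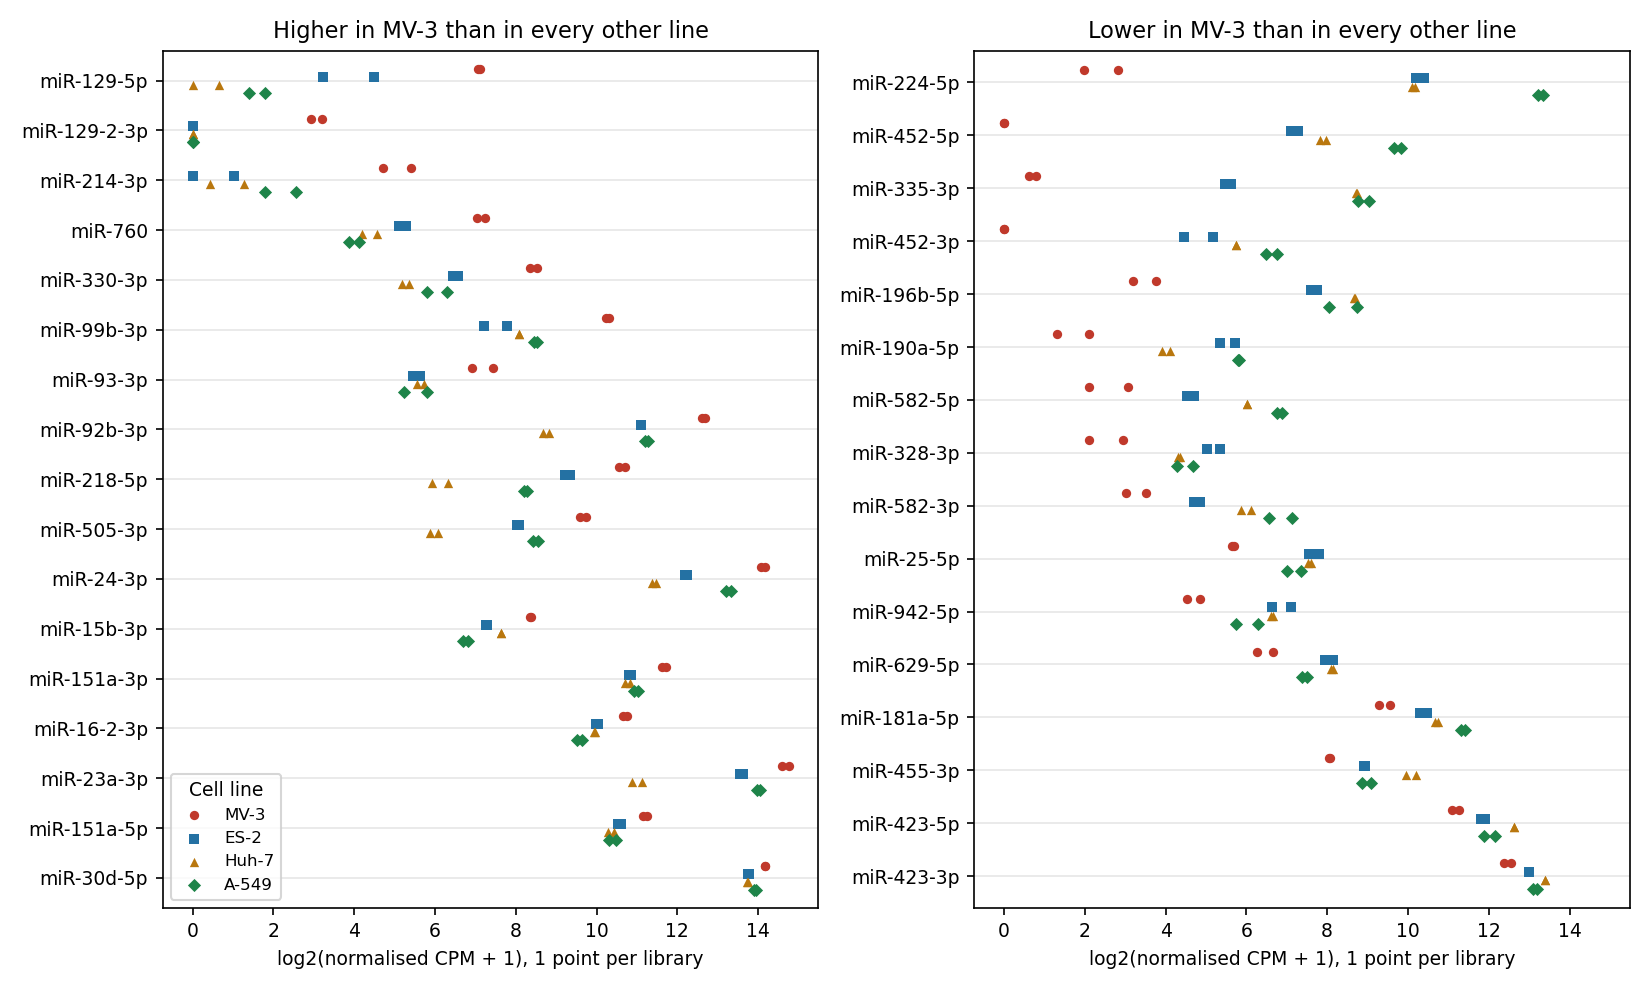
Levels of the 17 miRNAs higher (left) and the 16 lower (right) in MV-3 than in every other line, as log2(normalised CPM + 1) with 1 point per library and 1 symbol per line, sorted by margin. Both MV-3 points lie outside the range of the 6 other libraries in every row, with the widest gaps for miR-129-5p at 3.23 and miR-224-5p at 7.74 log2 units to the mean of the nearest line.

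**Figure D3:**
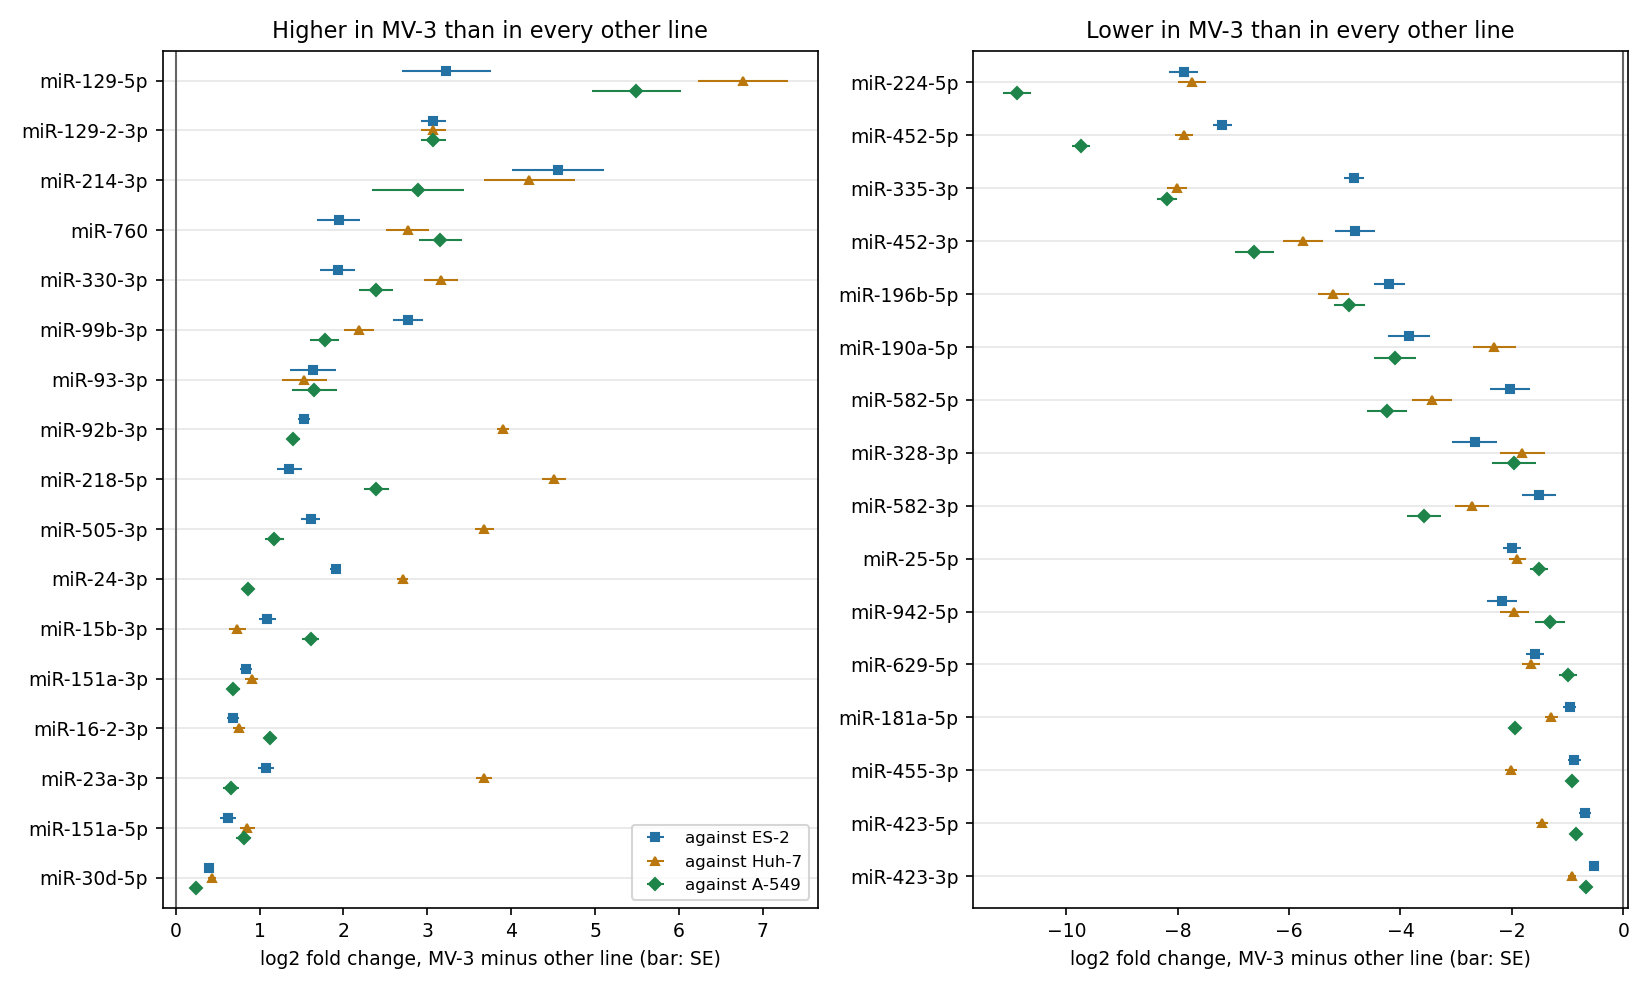
Log2 difference between MV-3 and each other line on the horizontal axis, 1 symbol per line with its SE as a bar, for the same miRNAs. For miR-92b-3p, miR-218-5p, miR-505-3p and miR-23a-3p the contrast with Huh-7 is the widest, and for miR-224-5p and miR-452-5p that with A-549.

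The miR-129 hairpins gave the widest margin among the higher miRNAs. miR-129-5p, a miRNA of brain and endocrine tissue, was at 133 and 137 in MV-3, 8.33 and 21.6 in ES-2, 0.563 and 0 in Huh-7 and 2.46 and 1.64 in A-549. MV-3 libraries lay above all others, with log2 differences of 3.23 from ES-2, 6.76 from Huh-7 and 5.49 from A-549 (SE 0.53, adjusted p = 0.00363, 6.41e-05 and 0.000224). This miRNA has 2 loci, on chromosomes 7 and 11, and its 2 entries held near equal reads in MV-3, 89 and 121 on chromosome 7 and 91 and 128 on chromosome 11. The opposite arms differ in name between the copies. miR-129-1-3p, from the copy on chromosome 7, had 0 and 4 reads in MV-3 and 0 in the other 6 libraries. miR-129-2-3p, from the hairpin at chr11:43581394-43581483 on the plus strand, had 9 and 15 reads in MV-3 and 0 in the other 6 libraries. Set against the 3-read floor of each library, MV-3 was at least 4.11-fold higher for this arm compared with ES-2, 7.97-fold with Huh-7 and 3.46-fold with A-549. The call of miR-129-5p was lost when any library other than ES-2 replicate 2 was left out and with a pseudocount of 0.1, and that of miR-129-2-3p with edgeR, with DESeq2 and under a filter of 10 CPM in 2 libraries.

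miR-214-3p, reported to promote melanoma metastasis, was at 25.2 and 41.7 in MV-3, 0 and 1.03 in ES-2, 1.41 and 0.342 in Huh-7 and 2.46 and 4.91 in A-549. Its levels in MV-3 were above all others, with log2 differences of 4.55 from ES-2, 4.22 from Huh-7 and 2.89 from A-549 (SE 0.55, adjusted p = 0.000867, 0.000671 and 0.00481). It lies with miR-199a on chromosome 1 in the DNM3OS transcript, at chr1:172138798-172138907 on the minus strand. The neighbor miR-199a-5p was at 1073 and 1198 in MV-3 and 761 and 801 in ES-2, and was not called between these lines (adjusted p = 0.42). miR-199a-5p has a second locus on chromosome 19, and its entries held near equal reads in MV-3, 728 and 1054 on chromosome 1 and 721 and 1129 on chromosome 19, so its reads cannot be assigned to the transcript of miR-214. The miR-214-3p call was lost without either MV-3, Huh-7 or A-549 library, without the filter, with a pseudocount of 0.1 and with DESeq2. miR-214-3p passed the filter only through MV-3, so its call and adjusted p carry no weight of their own. Of 5 tested miRNAs of the list of miR-199 and miR-214, 4, with miR-214-3p among them, were higher in MV-3 than in Huh-7 and than in A-549. Over all tested miRNAs, these shares were 20.1% and 15.5%. miR-199b-5p was at 46.5 and 77.0 in ES-2 and had 0 and 0 reads in MV-3.

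miR-330-3p, miR-760, miR-218-5p and miR-505-3p were higher in MV-3 at intermediate levels. miR-330-3p, encoded within the EML2 gene at chr19:45638994-45639087 on the minus strand, was at 365 and 325 in MV-3, 93.7 and 85.8 in ES-2, 35.2 and 40.0 in Huh-7 and 77.6 and 54.8 in A-549. This gave log2 differences of 1.93 from ES-2, 3.16 from Huh-7 and 2.38 from A-549 (SE 0.20, adjusted p = 0.000497, 2.41e-05 and 0.000129). Its opposite arm miR-330-5p, at 17.8 and 22.0 in MV-3 and 21.5 and 23.1 in ES-2, was not called against any line. miR-760 was at 132 and 149.8 in MV-3, 38.2 and 33.4 in ES-2, 17.2 and 22.9 in Huh-7 and 13.5 and 16.4 in A-549, with log2 differences of 1.95 from ES-2, 2.76 from Huh-7 and 3.15 from A-549 (SE 0.26, adjusted p = 0.00128, 0.000137 and 0.000109). miR-505-3p was at 852 and 769.9 in MV-3, 269 and 259.9 in ES-2, 58.0 and 66.9 in Huh-7 and 345 and 371 in A-549, with log2 differences of 1.61 from ES-2, 3.68 from Huh-7 and 1.18 from A-549 (SE 0.11, adjusted p = 8.55e-05, 7.71e-07 and 0.00022). Both MV-3 values of these miRNAs lay above every value in the other lines, and miR-760 lost its call without ES-2 or MV-3 replicate 2.

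miR-218-5p is cut from introns of SLIT2 and SLIT3, genes of axon guidance, and has been reported to target MITF. It was at 1661 and 1506 in MV-3, 592 and 645 in ES-2, 59.4 and 78.9 in Huh-7 and 293 and 308 in A-549, with log2 differences of 1.35 from ES-2, 4.51 from Huh-7 and 2.39 from A-549 (SE 0.15, adjusted p = 0.00057, 9.07e-07 and 3.57e-05). MV-3 had the highest level and Huh-7 the lowest, and the entries on chromosomes 4 and 5 held near equal reads, 1200 and 1395 against 1044 and 1349 in MV-3. The passenger arms miR-218-1-3p and miR-218-2-3p had 0 reads in MV-3, so that the copy in use could not be read from them.

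miR-92b-3p was the most abundant of the miRNAs with a margin above 1. Its levels were 6551 and 6210.4 in MV-3, 2199 and 2203 in ES-2, 449 and 406 in Huh-7 and 2342 and 2477 in A-549, with log2 differences of 1.53 from ES-2, 3.90 from Huh-7 and 1.40 from A-549 (SE 0.07, adjusted p = 1.71e-05, 9.35e-08 and 2.00e-05). This miRNA shares its seed with miR-92a-3p, miR-25-3p, miR-32-5p and miR-363-3p, and differs from miR-92a-3p by U10C, G21C and U22C. Summed over the 5 relatives, the family was not highest in MV-3. The sum was 43371 ± 860.3 normalised CPM in MV-3 (SD, n = 2), against 67145 ± 1753 in ES-2, 50191 ± 2197 in Huh-7 and 26959 ± 49.8 in A-549. miR-92b-3p made up 14.7% of the family in MV-3, compared with 3.28% in ES-2, 0.852% in Huh-7 and 8.94% in A-549.

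miR-24-3p and miR-23a-3p were, with miR-30d-5p, the most abundant miRNAs that were higher than in every other line. miR-23a-3p is cut, and miR-24-3p can be cut, from the miR-23a/27a/24-2 transcript on chromosome 19, whose members act in cell cycle and differentiation. The entries of miR-24-3p held near equal reads in MV-3, 11332 and 16498 on chromosome 19 and 12052 and 17249 on chromosome 9. Its reads thus cannot be assigned to 1 locus. miR-24-3p was at 17309.6 and 18519 in MV-3, 4679 and 4873 in ES-2, 2826 and 2659.8 in Huh-7 and 10271 and 9487 in A-549, with log2 differences of 1.91 from ES-2, 2.71 from Huh-7 and 0.86 from A-549 (SE 0.07, adjusted p = 5.06e-06, 2.50e-07 and 9.80e-05). miR-23a-3p was at 27619.5 and 24810.2 in MV-3, 12079.5 and 12717 in ES-2, 2237 and 1881 in Huh-7 and 16919.8 and 16202 in A-549, with log2 differences of 1.08 from ES-2, 3.67 from Huh-7 and 0.66 from A-549 (SE 0.10, adjusted p = 0.000262, 3.37e-07 and 0.00156). It lost its call against A-549 without MV-3 replicate 1 or either A-549 library. The third member, miR-27a-3p, did not follow against A-549, at 3731 and 4217 in MV-3 and 3946 and 3119 in A-549, a difference of 0.18 ± 0.12 (SE, adjusted p = 0.283). The related cluster on chromosome 9, which holds a second copy of miR-24, had another order. miR-23b-3p was at 3491 and 3219.6 in MV-3, 411 and 442 in ES-2, 3729.9 and 3485 in Huh-7 and 11563 and 11081 in A-549, so that A-549 was highest. Summed over the shared seed, miR-23a-3p, miR-23b-3p and miR-23c reached 29570.4 ± 2178 in MV-3 and 27883 ± 850.0 in A-549 (SD, n = 2 each).

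Several hairpins had 1 arm that was higher in MV-3 than in every other line while the opposite arm was not. miR-99b-3p, from an intron of SPACA6 at chr19:51692612-51692681 on the plus strand, was at 1265 and 1201 in MV-3, 149 and 218 in ES-2, 270.3 and 270.5 in Huh-7 and 348 and 370.5 in A-549, with log2 differences of 2.77 from ES-2, 2.18 from Huh-7 and 1.78 from A-549 (SE 0.18, adjusted p = 6.09e-05, 7.00e-05 and 0.000242). The opposite arm miR-99b-5p was at 6033 and 6163 in MV-3 and 8153 and 7447 in A-549, with a log2 difference of -0.35 ± 0.07 (SE, adjusted p = 0.00603) with TMM and of 0.60 with library size only. It was higher in MV-3 than in ES-2 and Huh-7, by 1.31 and 0.37 (SE 0.07, adjusted p = 2.76e-05 and 0.0043). The difference from Huh-7 was -0.15 with library size only. miR-93-3p was at 171 and 121 in MV-3, 48.6 and 42.6 in ES-2, 52.1 and 46.1 in Huh-7 and 36.9 and 54.8 in A-549, with log2 differences of 1.64 from ES-2, 1.53 from Huh-7 and 1.65 from A-549 (SE 0.27, adjusted p = 0.00368, 0.00292 and 0.00255). This call was kept in 12 of 19 settings and was lost without MV-3 replicate 1. The opposite arm miR-93-5p was at 4715 and 5535 in MV-3, 4759 and 5344 in ES-2 and 4581 and 5270.0 in A-549, and was called against neither of these lines.

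A further 2 hairpins of this kind lie together in an intron of SMC4, a gene for chromosome condensation. miR-15b-3p was at 326 and 334 in MV-3, 155 and 154 in ES-2, 199 and 197 in Huh-7 and 112 and 103 in A-549, with log2 differences of 1.09 from ES-2, 0.74 from Huh-7 and 1.61 from A-549 (SE 0.10, adjusted p = 0.000279, 0.000847 and 3.62e-05). miR-16-2-3p was at 1721 and 1608 in MV-3, 1014 and 1053 in ES-2, 991 and 981 in Huh-7 and 796 and 734 in A-549, with log2 differences of 0.69 from ES-2, 0.75 from Huh-7 and 1.12 from A-549 (SE 0.07, adjusted p = 0.000493, 0.000154 and 4.02e-05). The arms known to repress cyclins and BCL2 had no such order. miR-15b-5p was at 1725 and 1572 in MV-3, 1324 and 1506 in ES-2, 1623 and 1362 in Huh-7 and 1100.0 and 878 in A-549, and MV-3 was called only against A-549, at 0.74 ± 0.14 (SE, adjusted p = 0.00518). miR-16-5p, at 3042 and 3307 in MV-3 and 4718 and 4341 in Huh-7, was lower in MV-3 than in Huh-7. The calls of miR-15b-3p and miR-16-2-3p against Huh-7 were lost with library size only, at log2 differences of 0.22 and 0.23.

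Both arms of the miR-151a hairpin, and miR-30d-5p, had small margins. miR-151a-3p was at 3169.7 and 3362 in MV-3 and between 1670 and 2097 in the other libraries, and miR-151a-5p at 2432 and 2285 and between 1236 and 1570. miR-30d-5p, linked to melanoma progression, was at 18384 and 18419 in MV-3, 14115 and 13778 in ES-2, 13798 and 13522 in Huh-7 and 15816 and 15228 in A-549. Its difference from A-549 was 0.25 ± 0.05 (SE, adjusted p = 0.00439), and the one from Huh-7 turned from 0.43 to -0.09 with library size only.

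Among the lower miRNAs, the miR-224 and miR-452 hairpins in GABRE on the X chromosome showed the widest margin. They lie at chrX:151958578-151958658 on the minus strand and chrX:151959628-151959712 on the minus strand, within the transcript of this GABA receptor subunit gene. miR-224-5p, an abundant miRNA of liver cancer, was at 2.96 and 6.04 in MV-3, 1169 and 1348 in ES-2, 1163 and 1095 in Huh-7 and 9503 and 10431 in A-549. MV-3 held 4 and 11 reads, with log2 differences of -7.89 from ES-2, -7.74 from Huh-7 and -10.88 from A-549 (SE 0.26, adjusted p = 3.37e-06, 9.09e-07 and 7.32e-07), and its mean was 251-fold below that of Huh-7, the nearest line by the log2 difference. miR-452-5p had 0 and 0 reads in MV-3 and was at 137 and 155 in ES-2, 225 and 249.7 in Huh-7 and 807 and 905 in A-549. With MV-3 set to its 3-read floor per library, ES-2 was at least 75.5-fold, Huh-7 at least 123-fold and A-549 at least 443-fold higher. miR-452-3p also had 0 and 0 reads in MV-3, with 20.8 and 35.4, 52.7 and 52.6 and 108 and 88.3 in ES-2, Huh-7 and A-549. miR-224-3p, with 0 and 0 reads in MV-3, was called against ES-2 and A-549 but not against Huh-7 (adjusted p = 0.0205). All 4 arms of these hairpins were thus at or near 0 in both MV-3 libraries and detected in the 6 others. miR-224-5p, miR-224-3p, miR-452-5p and miR-452-3p passed the filter only through the other lines, so their calls and adjusted p carry no weight of their own.

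miR-335 was also near 0 in MV-3. It lies in an intron of the imprinted gene MEST at chr7:130496111-130496204 on the plus strand, and has been reported to restrain metastasis. miR-335-3p had 1 and 1 read in the MV-3 libraries, against 69 and 85 in ES-2, 1501 and 1239 in Huh-7 and 711 and 641 in A-549. In normalised CPM, it was at 0.74 and 0.549 in MV-3, 47.9 and 43.7 in ES-2, 423 and 423 in Huh-7 and 438 and 524 in A-549, with log2 differences of -4.83 from ES-2, -8.01 from Huh-7 and -8.19 from A-549 (SE 0.18, adjusted p = 6.32e-06, 1.75e-07 and 7.32e-07). miR-335-3p passed the filter only through the other lines, so its calls and adjusted p carry no weight of their own. From pooled reads of this arm, ES-2 exceeded MV-3 72.1-fold, with an exact 95% counting interval of 19.6 to 600.9. miR-335-5p had 2 and 0 reads in MV-3 and was low in ES-2 as well, at 3.47 and 2.57, so that MV-3 was called against Huh-7 and A-549 but not against ES-2 (adjusted p = 0.0676). This arm also passed the filter only through other lines, so its calls carry no weight of their own.

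miR-196b-5p, which lies in the HOXA cluster and represses HOX mRNAs, was at 8.14 and 12.6 in MV-3, 213 and 195 in ES-2, 406 and 414 in Huh-7 and 265 and 427 in A-549. Its level was lowest in both MV-3 libraries, with log2 differences of -4.20 from ES-2, -5.20 from Huh-7 and -4.92 from A-549 (SE 0.28, adjusted p = 6.97e-05, 9.93e-06 and 2.85e-05). miR-196a-5p, from the HOXB and HOXC clusters, was not low in MV-3, at 755 and 925 in MV-3, 242 and 309.7 in ES-2, 5005 and 5330.5 in Huh-7 and 646 and 607 in A-549. Of the summed pair, miR-196b-5p made up 1.22% in MV-3, against 42.5% in ES-2, 7.35% in Huh-7 and 35.6% in A-549. Of 9 miRNAs of the HOX clusters, 7 were tested. Against the mean of the lines, 2 were higher and 2 lower, beside 18% and 22.9% over all miRNAs, and miR-196b-5p was the only one that differed from every other line. miR-10a-5p, at 2126 and 2020.0 in MV-3, lay between ES-2 at 11859 and 12254 and Huh-7 at 5.63 and 7.51. miR-10b-5p was at 2404 and 2454 in MV-3 and exceeded A-549 by 1.07 ± 0.09 (SE, adjusted p = 0.000103), and miR-615-3p was at 123 and 149.

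A further 5 miRNAs of low abundance were lower in MV-3. miR-190a-5p, from TLN2, was at 1.48 and 3.29 in MV-3, 52.1 and 40.1 in ES-2, 14.1 and 16.4 in Huh-7 and 54.8 and 55.6 in A-549, with log2 differences of -3.84 from ES-2, -2.31 from Huh-7 and -4.11 from A-549 (SE 0.38, adjusted p = 0.000389, 0.00202 and 0.000185). Both arms of the miR-582 hairpin in PDE4D were lower. miR-582-5p was at 7.4 and 3.29 in MV-3, 25.0 and 22.1 in ES-2, 63.4 and 64.2 in Huh-7 and 108 and 118 in A-549, and miR-582-3p at 10.4 and 7.13 in MV-3, 27.8 and 25.2 in ES-2, 67.9 and 57.4 in Huh-7 and 138 and 93.2 in A-549. ES-2 was the nearest line for both arms, with differences of -2.03 ± 0.36 (SE, adjusted p = 0.00496) and -1.51 ± 0.30 (SE, adjusted p = 0.00888). These calls, and that of miR-328-3p, were lost in several settings. miR-190a-5p, miR-582-5p and miR-328-3p passed the filter only through the other lines, so their calls and adjusted p carry no weight of their own. miR-328-3p was at 6.66 and 3.29 in MV-3, 39.6 and 31.8 in ES-2, 19.4 and 18.8 in Huh-7 and 18.5 and 24.5 in A-549, and it was kept in 7 of 19 settings. miR-942-5p was at 28.1 and 22.0 in MV-3, 99.3 and 136 in ES-2, 101 and 97.3 in Huh-7 and 52.3 and 76.9 in A-549, with a difference from A-549 of -1.32 ± 0.27 (SE, adjusted p = 0.00661), and was kept in 8 of 19 settings. All 5 of these miRNAs lost their calls when either Huh-7 library was left out.

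miR-25-5p, from the miR-106b/93/25 hairpins in an intron of the replication gene MCM7, was lower in MV-3 while miR-93-3p of the same transcript was higher. It was at 48.9 and 51.0 in MV-3, 187 and 221 in ES-2, 193 and 185 in Huh-7 and 161 and 128 in A-549, with log2 differences of -2.002 from ES-2, -1.90 from Huh-7 and -1.51 from A-549 (SE 0.16, adjusted p = 0.000142, 8.62e-05 and 0.000314). The dominant arm miR-25-3p, at 2615 and 2319.6 in MV-3, was lower than in Huh-7 and A-549 but not called against ES-2 (adjusted p = 0.0214), and miR-106b-3p was not called against any line. The minor arms of 1 transcript thus lay on opposite sides in MV-3. With library size only, miR-25-5p was no longer called against A-549, at -0.57, and miR-25-3p was higher than in A-549, at 0.53.

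miR-181a-5p, a miRNA that acts in differentiation and T cell signaling, was at 622 and 749 in MV-3, 1254 and 1412 in ES-2, 1719.5 and 1618 in Huh-7 and 2531 and 2708 in A-549, with log2 differences of -0.96 from ES-2, -1.29 from Huh-7 and -1.94 from A-549 (SE 0.11, adjusted p = 0.000722, 9.61e-05 and 2.90e-05). Summed over miR-181a, b, c and d-5p, the family was also lowest in MV-3, at 1773 ± 297 normalised CPM, against 2593 ± 95.7 in ES-2, 3637 ± 102 in Huh-7 and 5102 ± 85.4 in A-549 (SD, n = 2 each). The passenger arm of the copy on chromosome 9 was not lowest in MV-3, since miR-181a-2-3p was at 674 and 600.3 in MV-3, 115 and 100.1 in ES-2, 209 and 227 in Huh-7 and 937 and 985 in A-549. It was higher in MV-3 than in ES-2 and Huh-7, by 2.56 and 1.54 log2 units (SE 0.11, adjusted p = 1.24e-05 and 4.46e-05). It was lower than in A-549, with a log2 difference of -0.59 ± 0.11 (SE, adjusted p = 0.00477), which turned to 0.36 with library size only.

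miR-455-3p, miR-629-5p and both arms of miR-423 completed the lower miRNAs. miR-629-5p was at 76.2 and 99.3 in MV-3, 285 and 244 in ES-2, 282 and 273 in Huh-7 and 166 and 181 in A-549, miR-455-3p at 267 and 264 in MV-3, 485 and 493 in ES-2, 1167 and 989.7 in Huh-7 and 540.4 and 467 in A-549, and miR-423-3p at 5353 and 6033 in MV-3, 8141 and 8137 in ES-2, 10804 and 10745 in Huh-7 and 8715 and 9389 in A-549. miR-423-5p was at 2179 and 2455 in MV-3 and between 3606 and 6371 elsewhere. Margins were 0.52, 0.69, 0.88 and 0.99 log2 units for miR-423-3p, miR-423-5p, miR-455-3p and miR-629-5p. These calls depended on scaling. With library size only, all 4 calls against A-549 were lost, with differences of 0.03 for miR-455-3p, 0.11 for miR-423-5p, 0.28 for miR-423-3p and -0.04 for miR-629-5p. The calls against ES-2 were then lost for 3 of them, at -0.44 for miR-455-3p, -0.24 for miR-423-5p and -0.08 for miR-423-3p.

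miRNAs linked to melanoma were next described as lists. Of 7 miRNAs reported to target MITF, 7 were tested, and 1 was higher and 2 lower in MV-3 than in the mean of the lines, with a median log2 difference of 0.23 beside -0.26 over all miRNAs. Over all 528 miRNAs, 18% were called higher and 22.9% lower in this contrast, and the small counts of each list below stand beside these shares. Only miR-218-5p was higher than in every other line. miR-137, at 51.1 and 73.0 in MV-3, 0 and 4.11 in ES-2, 11.8 and 6.49 in Huh-7 and 38.8 and 44.2 in A-549, was called higher than in ES-2, by 4.78 ± 0.78 (SE, adjusted p = 0.00346), but not than in Huh-7 or A-549. miR-148a-3p was at 6.66 and 14.3 in MV-3, 7.64 and 17.5 in ES-2, 17559 and 16144 in Huh-7 and 41.9 and 33.5 in A-549, so that MV-3 and ES-2 were low and Huh-7 was high, whereas miR-148b-3p was at 1651 and 1566 in MV-3 and between 1124 and 1825 elsewhere. miR-101-3p and miR-340-5p were at 1624 and 1395 and 239.8 and 297 in MV-3. The sensory and melanoma cluster of miR-183, miR-96 and miR-182 had 4 tested miRNAs, of which 0 were higher and 1 lower than in the mean of the lines. miR-182-5p was at 3219 and 3536 in MV-3, 2899 and 3106 in ES-2, 6826 and 6259.8 in Huh-7 and 6441 and 7658 in A-549, and was lower than in Huh-7, with a log2 difference of -0.95 ± 0.10 (SE, adjusted p = 0.000272).

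Of 9 miRNAs linked to melanoma invasion, 9 were tested, and 5 were higher and 1 lower than in the mean of the lines, with a median log2 difference of 1.501, beside 18% higher, 22.9% lower and a median of -0.26 over all miRNAs. In addition to miR-214-3p and miR-30d-5p, which were called higher than in every other line, these included miR-221-3p and miR-222-3p, which repress KIT and the cell cycle inhibitor p27. miR-214-3p passed the filter only through MV-3, so its call carries no weight in this count. The call of miR-30d-5p was lost with edgeR and with DESeq2, and its difference from Huh-7 was -0.09 with library size only. miR-222-3p was at 38796 and 38673 in MV-3, 63999.5 and 67794 in ES-2, 2527 and 2360.3 in Huh-7 and 14138 and 14937 in A-549, and miR-221-3p at 17780.3 and 14497 in MV-3 and 28091 and 29319 in ES-2. For both miRNAs ES-2 was highest, with MV-3 second. miR-149-5p was at 99.2 and 99.9 in MV-3, 22.2 and 6.16 in ES-2, 10.7 and 11.3 in Huh-7 and 152 and 179 in A-549, and MV-3 was higher than ES-2 and Huh-7. miR-1908-5p, at 25.2 and 42.8, was lower than in Huh-7, with a log2 difference of -2.44 ± 0.29 (SE, adjusted p = 0.000457), and miR-30b-5p, at 298 and 237, was called against no line.

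Of 11 miRNAs reported as lost in melanoma, 8 were tested, and 3 were higher and 2 lower than in the mean of the lines, with a median of -0.20, beside the same shares of 18% and 22.9% over all miRNAs. miR-211-5p and miR-205-5p had 0 reads in MV-3, and miR-203a-3p 0 and 2. miR-34a-5p also had 0 and 0 reads, as given above, so its calls carry no weight in this count, and miR-200c-3p was at 12.6 and 24.7. Other members were abundant in MV-3. miR-31-5p was at 4082 and 4707 in MV-3, 3175 and 3194 in ES-2, 0.563 and 1.02 in Huh-7 and 15261 and 14187 in A-549, and let-7b-5p at 4578 and 5018 in MV-3, 9040.3 and 11111 in ES-2, 19.7 and 42.3 in Huh-7 and 10787 and 14171 in A-549. miR-125b-5p, at 8749.5 and 7403, and miR-26a-5p, at 10452 and 10908, were lower than in ES-2 and higher than in A-549. With library size only, the call of miR-26a-5p against ES-2 was lost, at -0.07. miR-193b-3p, at 22.9 and 35.7, was lower than in A-549, with a log2 difference of -2.82 ± 0.33 (SE, adjusted p = 0.00053).

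Presence and absence gave a short list of its own. With detection set at more than 3 reads in both libraries of MV-3 and at most 3 in each other library, 6 miRNAs (0.452% of the 1327 with a read) were found in MV-3 alone. Besides miR-129-2-3p, these were miR-767-3p with 19 and 7 reads, miR-504-5p with 10 and 10, miR-3065-3p with 6 and 8, miR-6850-5p with 9 and 4 and miR-4748 with 6 and 5. The opposite arm miR-767-5p and its cluster neighbor miR-105-5p, named after their values were seen, were at 102 and 112 in MV-3, 47.9 and 15.4 in ES-2, 0 and 0 in Huh-7 and 1.23 and 0.818 in A-549 and at 74.0 and 106 in MV-3, 20.8 and 24.1 in ES-2, 0 and 0 in Huh-7 and 1.23 and 0 in A-549. Both MV-3 libraries were highest for both miRNAs, ES-2 was second and the contrast with ES-2 did not pass, at adjusted p = 0.0382 and 0.0225. In the other direction, 7 miRNAs (0.528%) had at most 3 reads in both MV-3 libraries and more than 3 in each of the 6 others. They were miR-224-3p, miR-452-5p, miR-452-3p, miR-335-5p, miR-335-3p, miR-1284 and miR-573.

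The most abundant miRNAs of MV-3 did not set it apart. miR-21-5p led with 288099 and 272993 normalised CPM, followed by let-7a-5p with 87714 and 93415, miR-100-5p with 65419 and 54893, miR-222-3p with 38796 and 38673 and miR-92a-3p with 33575 and 35421. In A-549, miR-21-5p was at 1068840.0 and 1081460.0, and such values can exceed the total of a CPM scale because of the TMM factor. For let-7a-5p, miR-100-5p and miR-222-3p, the order was ES-2, MV-3, A-549 and Huh-7. MV-3 differed from both neighbors in this order for miR-100-5p and miR-222-3p, while let-7a-5p was not called against A-549 (adjusted p = 0.201). None of the 5 was higher or lower in MV-3 than in every other line.

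Several minor arms differed from every other line while their major arms did not. The ratio of 5p to 3p reads was therefore compared within each library, where library scaling cancels apart from the pseudocount. Among 96 hairpins with at least 10 normalised CPM for each arm in the mean of the lines, 4 (4.17%) differed between MV-3 and every other line with 1 sign, namely miR-224, miR-452, miR-199b and miR-330. No ratio was called without ES-2 replicate 1 or without either MV-3 library, which left 0 of the 4. For miR-224 and miR-452 both arms were at or near 0 in MV-3, and the 3p arm of miR-199b cannot be told from that of miR-199a, so these ratios describe the levels above. The log2(5p/3p) of miR-330 was lower in MV-3, where only the 3p arm was higher. Ranked by the smallest of the 3 differences, miR-199b, miR-224 and miR-182 were widest, at -6.53, -5.03 and -2.87 log2 units. The miR-182 ratio was not called against any line. With each arm at 10 normalised CPM or more in every line, a setting chosen after seeing the data, 36 hairpins remained and 2 were called, miR-93 and miR-99b. For miR-99b, log2(5p/3p) was 2.25 and 2.36 in MV-3, 4.04 and 3.49 in ES-2, 4.19 and 4.05 in Huh-7 and 4.54 and 4.33 in A-549. For miR-93, it was 4.78 and 5.51 in MV-3 and between 6.56 and 7.41 in the other libraries.

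Ratios of the other hairpins were described by counts. Of the 96 hairpins, 43 had a lower mean log2(5p/3p) in MV-3 than in every other line and 13 a higher one. Among 50 hairpins whose 5p arm dominates, the counts were 27 and 2, with a median difference of -0.65 against ES-2, -0.70 against Huh-7 and -0.74 against A-549. Among 46 hairpins whose 3p arm dominates, they were 16 and 11, with medians of -0.20, -0.08 and 0.06. Of the 36 hairpins of the setting chosen after seeing the data, 25 had a lower mean log2(5p/3p) in MV-3 than in every other line and 4 a higher one. Among 20 hairpins whose 5p arm dominates, the counts were 17 and 0, with a median difference of -0.66 against ES-2, -0.72 against Huh-7 and -0.60 against A-549. Among 16 hairpins whose 3p arm dominates, they were 8 and 4, with medians of -0.20, -0.12 and -0.09. In both sets, the 3p arm took a larger share next to a dominant 5p arm in MV-3 by the median, and the medians next to a dominant 3p arm were smaller in size. Per library, the median log2(5p/3p) of the 20 5p-dominant hairpins was 2.85 and 2.79 in MV-3, and between 3.36 and 3.74 in the other 6 libraries. These counts are descriptions, since hairpins of 1 library are not replicates. MV-3 libraries were also the shallowest, and the part of depth in this pattern was not tested.

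**Figure D4:**
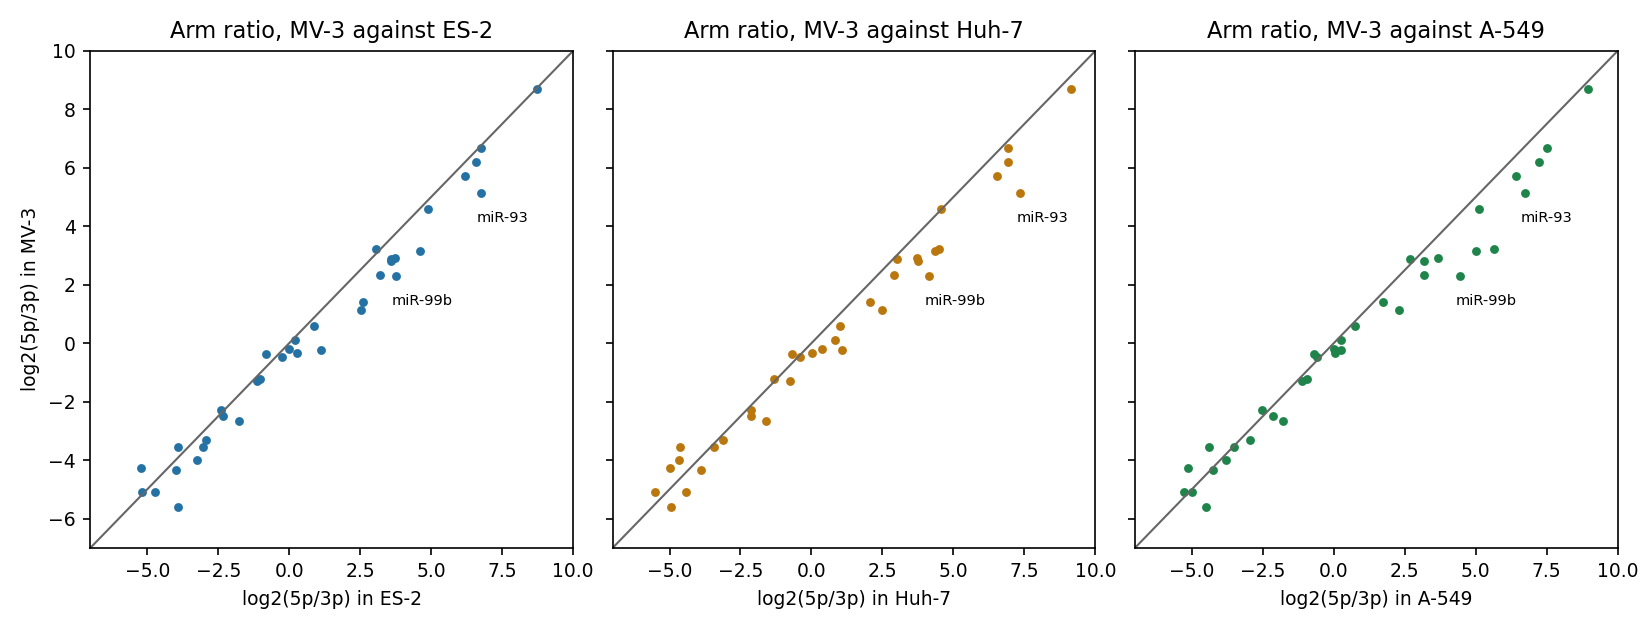
Mean log2(5p/3p) per hairpin in MV-3 on the vertical axis against ES-2, Huh-7 and A-549 on the horizontal axes, for the 36 hairpins with both arms at 10 normalised CPM or more in every line; the line marks equal ratios. Most points with a high 5p share lie below the line in all 3 panels, such as miR-93 at -1.62, -2.22 and -1.60 log2 units from ES-2, Huh-7 and A-549, while points with a high 3p share lie nearer to it.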

How the data were processed

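Small RNA-seq was performed on 8 libraries, 2 each of MV-3, ES-2, Huh-7 and A-549, prepared with a NEXTflex small RNA kit. The authors trimmed reads with Cutadapt 1.14, aligned them to hg38 with Bowtie2 2.3.2, counted miRBase miRNAs with featureCounts 1.5.3 and deposited TMM-normalised values from edgeR 3.18.1, a signal relative to library size (normalised CPM). Handling of reads that map to several loci, and of strand, is not given in the sources used here. Such reads touch miRNAs with several entries (167 of 2588 names), whose entries were summed by name. Whole reads were recovered from 100% of the deposited values at a fixed tolerance. Groups were taken from the labels.

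MV-3 was compared with each line, and with the mean of the 3 lines weighted equally, by limma 3.58.1 in R 4.3.3 on log2(normalised CPM + 1) over 528 miRNAs (4 residual degrees of freedom, Benjamini-Hochberg adjusted p below 0.01). The same model was used for log2(5p/3p). The fit was tested on simulated data. Alternatives were other scalings and filters, a pseudocount of 0.1, edgeR 4.0.16 and DESeq2 1.42.0 on recovered reads, a replicate block and leaving out each library. Up to 10 miRNAs per direction with at least 100 normalised CPM were named by margin, with the 5 most abundant miRNAs of MV-3, detected miRNAs of the marker and cluster lists and the 3 hairpins with the widest arm ratio difference. The other miRNAs that differed from every line, and opposite arms or neighbors of those named, were chosen for naming after their values were seen. Members and lists were chosen with earlier results of these data known. Library depth was 1173902 to 2670030 reads, and p-values measure the spread between 2 cultures per line.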

Additional observations from a re-analysis of the deposited data

How the results depend on the processing

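Counts of called miRNAs moved with several choices. Against the mean of the 3 lines, the 216 calls fell to between 129 and 208 in some settings. They were 132 without MV-3 replicate 1 and 129 without MV-3 replicate 2. With RLE size factors they rose, to 94 higher and 134 lower, and with library size only to 121 higher and 97 lower. The 136 calls against ES-2 became 74 higher and 83 lower with DESeq2 and 85 and 58 with library size only. There were 73 when only the 4 libraries of both lines were fitted. Leaving out any 1 library, which leaves a single library in that line, lowered both counts. The 17 miRNAs higher than in every line fell to 11 to 16 in some settings (11 without MV-3 replicate 1). With a log2 difference of at least 1, 10 remained. The count rose to 18 with edgeR, 19 with library size only, 20 without the filter and 21 with DESeq2. It was 27 at adjusted p below 0.05. The 16 lower miRNAs became 8 with library size only, 14 without the filter and 17 with RLE size factors, a pseudocount of 0.1 or DESeq2. Leaving out any 1 library lowered the counts of higher and of lower miRNAs as well. The 4 arm ratio calls became 0 to 3, 1 with a pseudocount of 0.1, 1 with each arm at 50 or more, 2 with each arm at 10 or more in every line, chosen after seeing the data, and 10 at adjusted p below 0.05. With a replicate block, there were 206 calls against the mean of the lines, 17 higher and 14 lower miRNAs and 4 arm ratios. Deviations of libraries with equal replicate numbers correlated at -0.05 to 0.232 between lines. With 2 libraries per line, this cannot decide whether equal numbers pair the samples.

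Against the mean of the lines, 4 log2 differences turned positive with library size only, namely miR-196a-5p (0.089), miR-26a-5p (0.10), miR-183-5p (0.22) and miR-92a-3p (0.13). Over left-out libraries, miR-30b-5p ranged from -0.13 to 0.20, miR-145-3p from -0.0353 to 0.78 and miR-1-3p from -0.83 to 1.41, each with a change of sign when 1 MV-3 library was left out. Of the 99 contrasts of the miRNAs that differed from every line, 82 kept direction and call with library size only. Causes were not tested. MV-3 had the fewest reads, which limits statements on miRNAs near its floor.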
